A study of Mus musculus with 6 samples.

Results

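The muscle miRNAs miR-1, miR-133, miR-206 and miR-499 were examined in C2C12 cells, a mouse myoblast line, with and without TGF-beta. Their 9 names were taken from the deposited table of 1065 miRNA names because they carry these miRNAs' numbers, a rule that reads names and not values, although the miRNAs were picked with earlier results of these data known. miR-1a-3p and miR-1b-5p share reads and are treated as a single signal, which leaves 8 signals. Small RNA was sequenced in 6 libraries, 3 from control C2C12 cells and 3 from C2C12 cells whose treatment label is TGF-beta, and the series asks about myoblasts in fibrosis of skeletal muscle. The labels give no TGF-beta isoform, dose, duration or growth medium, and they do not say whether the cells were dividing or had begun to differentiate. All 6 libraries come from a single cell line, and nothing in the labels says that replicates came from separate cultures. The p-values below therefore refer only to library-to-library spread, part or all of which may be technical.

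miRNAs are short RNAs cut from both arms of a hairpin precursor. The guide arm is loaded into an Argonaute protein and represses mRNAs that match its seed, bases 2 to 8, while the passenger arm is mostly degraded. miR-1, miR-133 and miR-206 are induced by the muscle regulatory factors MyoD and myogenin when myoblasts differentiate. MEF2 and SRF also induce miR-1 and miR-133a. miR-1 and miR-206 share a seed and favour differentiation, in part by repressing histone deacetylase 4 and, for miR-206, the replication factor subunit Pola1 and connexin 43. miR-133 has been described as favouring myoblast proliferation and as repressing SRF. miR-499 lies within a myosin heavy chain gene and is known for slow-twitch fibres and heart. TGF-beta signals through Smad proteins and is known to hold back myoblast differentiation.

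The RefSeq sequence table matched 5 of the 9 names, all of which are shown because they are the arms whose levels are compared below. Each runs 5′ to 3′ with its seed in capitals, from GRCm38.p6. The guide arm miR-206-3p and its passenger miR-206-5p come from Mir206 on the plus strand of chromosome 1, as do miR-133b-3p and miR-133b-5p from Mir133b. miR-499-5p is cut from Mir499 on the plus strand of chromosome 2. miR-1a-3p, miR-1b-5p, miR-133a-3p and miR-133a-5p are given by name only.
miR-206-3p: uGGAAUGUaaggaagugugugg
miR-206-5p: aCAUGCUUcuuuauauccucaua
miR-133b-3p: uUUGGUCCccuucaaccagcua
miR-133b-5p: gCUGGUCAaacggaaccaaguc
miR-499-5p: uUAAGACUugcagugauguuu

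The precursors show how the arms sit in the hairpin, with the annotated mature arms in capitals. Mir206 lies at chr1:20679010-20679082 and Mir133b at chr1:20682769-20682887, with 3686 bases between them. Both overlap exons of the long noncoding RNA gene Gm28653 in GENCODE M21. Mir499 lies at chr2:155622880-155622958 in an intron of Myh7b. These positions are in GRCm38.p6, while the authors worked with mm9, and the deposited table holds no positions.
Mir206: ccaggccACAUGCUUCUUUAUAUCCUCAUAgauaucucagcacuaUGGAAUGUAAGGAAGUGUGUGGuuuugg
Mir133b: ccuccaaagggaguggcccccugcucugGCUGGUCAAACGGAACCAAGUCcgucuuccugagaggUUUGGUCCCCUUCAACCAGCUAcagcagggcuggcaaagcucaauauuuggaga
Mir499: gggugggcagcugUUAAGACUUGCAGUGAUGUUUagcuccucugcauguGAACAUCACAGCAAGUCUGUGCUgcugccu

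Levels are in RPM, or reads per 1000000 reads assigned to miRNAs in that library, with no correction for length. That total and the library totals below are sums over names, so reads shared by miR-1a-3p and miR-1b-5p enter under both. Other names had nearly equal levels too, such as miR-24-3p and miR-3074-5p (means of 8528 and 8522 RPM in control) and the miR-486 names. These may count the same reads again, and the numbers of tested and called names below count each such name. Library totals ran from 9015669 to 9813063 reads, which puts the value of 1 read at 0.102 to 0.111 RPM. TGF-beta replicate 3 had the fewest reads and stood apart from its group. A chi-square test of reads over names gave 324 and 167 per degree of freedom for its pairs with the other treated libraries, against 75.1 to 121 for all other pairs within a group. TGF-beta changed 33 of 418 tested names past an adjusted p of 0.05 in limma (7.89%), 17 higher (4.07%) and 16 lower. That split was 20 to 10 with median scaling, 19 to 10 in edgeR and in DESeq2, 22 to 6 with miR-21a-5p left out of the total and 10 to 17 with the muscle names left out. The 5 skeletal muscle markers, which are the 4 guide arms of miR-1, miR-133 and miR-206 plus miR-486a-5p, summed to 134804 to 154422 RPM in control and 101338 to 102533 RPM in treated libraries. The labels' extraction text speaks of retinas. Of 7 retina markers miR-124-3p was not among the 1065 names, and miR-211-5p and miR-204-5p stayed at 0.427 RPM or less. Of the 4 tested, 0 were called. Among them miR-9-5p averaged 1408 RPM in control and 1215 RPM in treated libraries (limma adjusted p = 0.411). Its treated libraries all lay below its control libraries, as for 12.2% of all tested names, while the groups of the other tested markers of retina overlapped. The sum of the 6 was 7637 to 8661 RPM in control and 6368 to 8600 RPM in treated libraries, mostly miR-182-5p and miR-183-5p, and its part in the results was not tested. Heart markers summed to 45.3 to 56.4 RPM in control and 38.6 to 49.9 RPM in treated libraries, nearly all of it miR-499-5p, with miR-208b-3p at 0.427 RPM or below. The endothelium marker miR-126a-3p ran from 12.3 to 24.3 RPM, and the markers of blood, liver and epithelium each summed to 3.44 RPM or below.

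**Figure D1:**
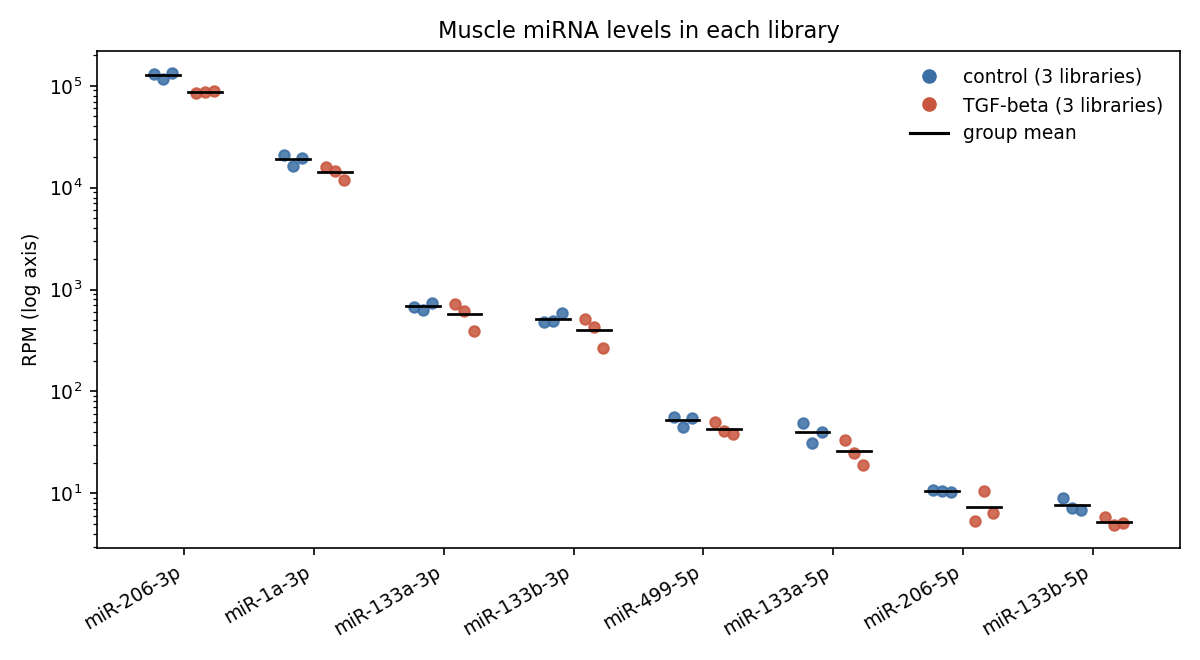
RPM on a log axis of the 8 muscle signals in each library, with control in blue, TGF-beta in red and the group mean as a line. miR-206-3p lay between 84351 and 132538 RPM and the lowest signal, miR-133b-5p, between 4.87 and 9.07 RPM. The colours separate fully at miR-133b-5p, miR-1a-3p and miR-206-3p.

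mmu-miR-206-3p, the guide arm that promotes myoblast differentiation, was lower with TGF-beta. It stood at 131326, 116789 and 132538 RPM in control replicates 1, 2 and 3 and at 84351, 86377 and 88322 RPM in TGF-beta replicates 1, 2 and 3. The groups did not overlap, with 28467 RPM between the lowest control and the highest treated library, and the treated libraries lay close together, with a coefficient of variation of 2.30% against 6.91% in control. The fold change was 0.682 (95% interval 0.607 to 0.765), or −0.55 on the log2(RPM + 1) scale (SE 0.08, limma with Benjamini-Hochberg adjustment over 418 tested names, adjusted p = 0.000479). This was the smallest p-value of all tested names. By level it had rank 2 in all control libraries and in TGF-beta replicate 3, and rank 3 in the other two treated libraries. In RNA from whole cultures, fewer cells that make a miRNA and less of it per cell cannot be told apart.

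RPM values are shares of a fixed total, and the most abundant name, miR-21a-5p, took 25.8% to 27.9% of the reads in control and 34.0% to 36.7% in treated libraries. As a share of all reads other than those of miR-21a-5p, miR-206-3p took 16.2% to 18.1% in control and 12.8% to 13.96% in treated libraries, and these groups did not overlap either. On that scale its log2 fold change was −0.38 (limma adjusted p = 0.00932), while the median of all tested names moved from −0.05 to 0.11. Quantile normalization ended the call (−0.21, limma adjusted p = 0.277), as did limma without an intensity trend (adjusted p = 0.0526 at the same fold). It passed with edgeR (−0.49, adjusted p = 0.000809) and DESeq2 (−0.50, adjusted p = 0.00107) on reads recovered from the RPM values, and without each library in turn (−0.61 to −0.52, limma adjusted p from 2.89e-05 to 0.0102).

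The passenger arm mmu-miR-206-5p was scarce, at 10.9, 10.6 and 10.3 RPM in control and 5.37, 10.5 and 6.43 RPM in treated libraries. TGF-beta replicate 2 lay inside the control range, and replicates 1 and 3 lay below it. Its reads numbered 97 to 107 in control and 50, 99 and 58 in treated libraries. Counting error alone gives exact Poisson 95% intervals of 3.98 to 7.08 RPM for TGF-beta replicate 1 and 8.51 to 12.8 RPM for TGF-beta replicate 2, which do not overlap. The log2 fold change was −0.51 (95% interval −0.93 to −0.08, limma adjusted p = 0.182), and it passed without TGF-beta replicate 2, at −0.75 (limma adjusted p = 0.0385).

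mmu-miR-1a-3p, the guide arm of the other miRNA with the miR-206 seed and a repressor of histone deacetylase 4, was also lower. It stood at 21107, 16196 and 19770 RPM in control and at 15873, 14668 and 11952 RPM in treated libraries. The groups did not overlap, but control replicate 2 lay only 323 RPM above TGF-beta replicate 1. The log2 fold change was −0.43 (SE 0.12, 95% interval −0.68 to −0.18, limma adjusted p = 0.0363). The call did not survive dropping control replicate 1 (−0.35, limma adjusted p = 0.220) or control replicate 3 (−0.39, limma adjusted p = 0.106). Dropping TGF-beta replicate 2 (−0.46, limma adjusted p = 0.142) or 3 (−0.31, limma adjusted p = 0.139) ended it too. It was also lost in edgeR (−0.36, adjusted p = 0.0709), in DESeq2 (−0.38, adjusted p = 0.0997), with median scaling (−0.36, limma adjusted p = 0.0807) and on the scale without miR-21a-5p (−0.26, limma adjusted p = 0.248). On the scale without miR-21a-5p the groups overlapped, with control replicate 2 at 2.25% and TGF-beta replicate 1 at 2.41% of the other reads.

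mmu-miR-1b-5p gave no separate information. It held 99.8% to 99.9% of the reads of miR-1a-3p in every library, 21.5 to 36.2 RPM fewer. A like match was seen on the other arms, where miR-1a-2-5p and miR-1b-3p had the same reads in each of the 6 libraries, 1, 0 and 3 in control and 0, 5 and 0 in treated libraries. How reads that match several names were counted is not stated in the labels. miR-1a-1-5p, a passenger arm of miR-1, had 1 to 9 reads per library, so that no passenger arm of miR-1 reached the tested level of at least 1 RPM in 3 libraries.

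The miR-1a-1-5p arm differs from miR-206-5p by G5A, C17G and U19C, with miR-206-5p first and positions counted from 1 at the 5′ end, and is shown because these arms stood apart in level. It lies on chromosome 2 and ran from 0.106 to 0.971 RPM, against 5.37 to 10.9 RPM for miR-206-5p.
miR-1a-1-5p: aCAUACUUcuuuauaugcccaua

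**Figure D2:**
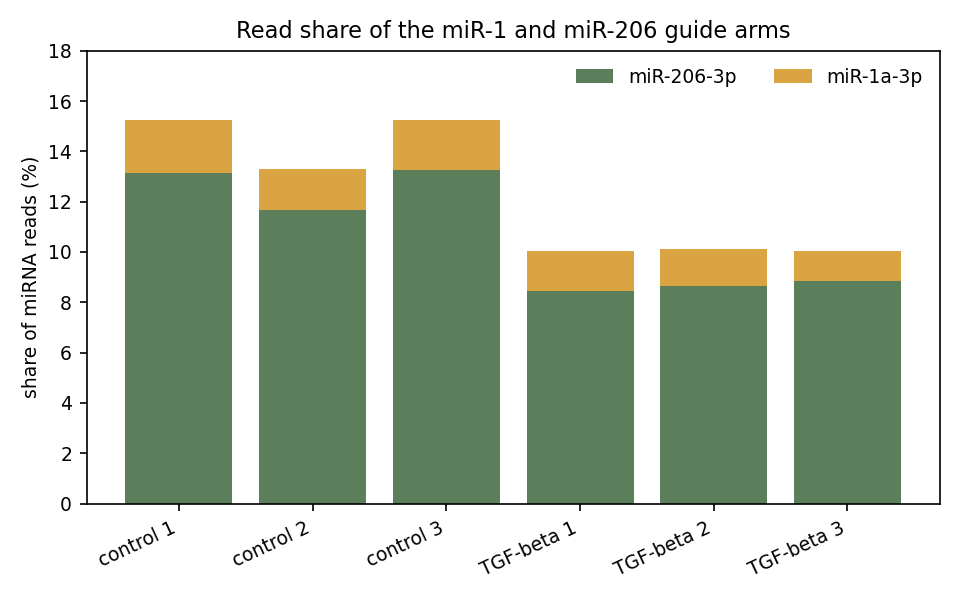
Share of all miRNA reads, in percent, taken by miR-206-3p (green) and miR-1a-3p (yellow) in each library, with bars from 0. The stacked total was 13.3% to 15.2% in control and 10.02% to 10.1% in TGF-beta libraries.

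Together the arms with the seed shared by miR-1 and miR-206 took 15.2%, 13.3% and 15.2% of the miRNA reads in control and 10.02%, 10.1% and 10.03% in treated libraries. The treated totals lay within 0.1 percentage points of each other although the parts did not. In TGF-beta replicate 3 miR-206-3p was the highest and miR-1a-3p the lowest of the treated libraries, and in TGF-beta replicate 1 the order was the opposite. The ratio of miR-206-3p to miR-1a-3p was thus 5.31, 5.89 and 7.39 in the treated and 6.22, 7.21 and 6.70 in the control libraries, with overlapping groups. All 8 signals together took 13.4% to 15.4% of the reads in control and 10.1% to 10.2% in treated libraries, and miR-206-3p alone made up 83.1% to 87.4% of that.

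The miR-133 guide arms, which carry a seed of their own (UUGGUCC in miR-133b-3p), were not called. mmu-miR-133a-3p stood at 682, 636 and 744 RPM in control and at 723, 617 and 388 RPM in treated libraries. TGF-beta replicate 1 lay inside the control range, replicate 2 just below it and replicate 3 well below it. The log2 fold change was −0.30 (95% interval −0.67 to 0.07, limma adjusted p = 0.427) and, with TGF-beta replicate 3 dropped, −0.04. mmu-miR-133b-3p also had its lowest value in TGF-beta replicate 3, with 483, 492 and 585 RPM in control and 512, 432 and 268 RPM in treated libraries. Its log2 fold change was −0.41 (95% interval −0.79 to −0.02, limma adjusted p = 0.267). With TGF-beta replicate 3 dropped that value was −0.14, and with TGF-beta replicate 1 dropped the name passed, at −0.60 (limma adjusted p = 0.0476).

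miR-133a-3p was higher than miR-133b-3p in each of the 6 libraries, with a ratio of miR-133b-3p to miR-133a-3p of 0.690 to 0.786. The mature guides of miR-133a and miR-133b are nearly identical, and the handling of reads that match both is not stated, so the split between them is uncertain. Their sum was 1165, 1128 and 1329 RPM in control and 1235, 1049 and 657 RPM in treated libraries, with TGF-beta replicate 1 inside the control range. Although the Mir206 and Mir133b hairpins are neighbours, the guide arm of the former was 227 to 272 times as abundant as that of the latter in control and 165, 199.9 and 329 times in treated libraries.

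The miR-133 passenger arms were lower in level. mmu-miR-133a-5p stood at 49.4, 31.1 and 40.0 RPM in control and 33.1, 25.1 and 19.2 RPM in treated libraries. A single treated library, replicate 1, reached into the control range. The log2 fold change was −0.63, the most negative of the 8 signals (95% interval −1.04 to −0.22, limma adjusted p = 0.0592). It passed without control replicate 2 (−0.80, limma adjusted p = 0.01003) or without TGF-beta replicate 1 (−0.82, limma adjusted p = 0.0105).

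mmu-miR-133b-5p was at 9.07, 7.23 and 6.93 RPM in control and 5.91, 4.87 and 5.10 RPM in treated libraries, from 46 to 89 reads. All treated values lay below all control values, by 1.03 RPM at the closest. Its log2 fold change was −0.47 (95% interval −0.86 to −0.08, limma adjusted p = 0.169). In the authors' deposited table its p was 0.0295, unadjusted, and miR-206-3p had 0.00145. The other names had 0.0598 to 0.343 there, with miR-1a-3p at 0.0600, and 7.51% of all names in that table had a p under 0.05.

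mmu-miR-499-5p, the miRNA in the myosin gene Myh7b, was at 55.9, 45.3 and 54.5 RPM in control and 49.6, 41.3 and 38.4 RPM in treated libraries. Control replicate 2 lay inside the treated range. Its log2 fold change was −0.27 (95% interval −0.59 to 0.06, limma adjusted p = 0.427), and without each library in turn it was −0.37 to −0.19. Of the related miR-208 names, which heart is known for, miR-208b-3p was listed with 0 to 4 reads per library. The miR-208a arms were not among the 1065 names.

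By mean level over the 6 libraries miR-206-3p came first, then miR-1a-3p, miR-133a-3p, miR-133b-3p, miR-499-5p, miR-133a-5p, miR-206-5p and miR-133b-5p, for mature RNAs of 21 to 23 bases where the sequence is given. The first pair did not come near each other in any library, nor did miR-1a-3p and miR-133a-3p, whose ratio was 21.97 to 30.9. Ranges overlapped within a group for miR-133a-3p and miR-133b-3p in treated libraries, for miR-499-5p and miR-133a-5p in control, and for miR-206-5p and miR-133b-5p in treated libraries. These levels are read shares and were not calibrated between names.

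**Figure D3:**
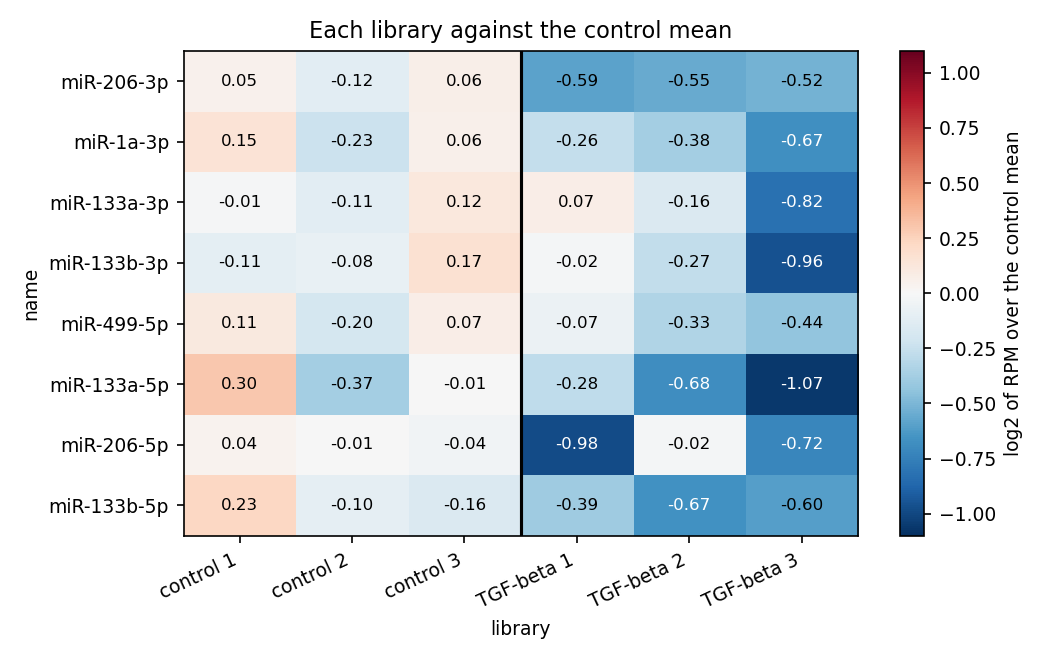
Log2 of the RPM of each library over the control mean of the name, for the 8 signals (rows) and the 6 libraries (columns). In TGF-beta replicate 3 the values of miR-133a-3p, miR-133b-3p and miR-133a-5p were −0.82, −0.96 and −1.07, while miR-206-3p lay between −0.59 and −0.52 in all treated libraries.

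The spread among treated libraries therefore differed from name to name. Against the control mean, miR-206-3p was at −0.59, −0.55 and −0.52 (log2 of the RPM ratio) in TGF-beta replicates 1, 2 and 3. miR-1a-3p was at −0.26, −0.38 and −0.67, and miR-133b-3p at −0.02, −0.27 and −0.96. TGF-beta replicate 3 was the lowest treated library for 5 of the 8 signals, namely miR-1a-3p, miR-133a-3p, miR-133b-3p, miR-133a-5p and miR-499-5p, and the highest for miR-206-3p. What sets this library apart was not tested.

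Whether the guide arms moved by unequal amounts was asked through their ratio within each library, for all 6 pairs among the 4 guide arms of miR-206, miR-1, miR-133a and miR-133b. The log2 ratio of miR-206-3p to miR-133a-3p was 7.53 ± 0.06 in control and 7.27 ± 0.50 in treated libraries (SD, n = 3 each), a difference of −0.25 (two-sided exact permutation test, p = 0.4, adjusted p = 0.75 over the 6 pairs). For miR-206-3p and miR-1a-3p the difference was −0.13 (exact permutation p = 0.5, adjusted p = 0.75). Single libraries moved both values: the former was −0.53 with TGF-beta replicate 3 dropped and −0.05 with TGF-beta replicate 1 dropped, and the latter −0.26 and −0.02. Without TGF-beta replicate 3 the log2 ratios of miR-206-3p to miR-1a-3p did not overlap. They were 2.64 to 2.85 in control and 2.41 and 2.56 in treated libraries. In that setting the groups also separated for miR-206-3p to miR-133a-3p, miR-206-3p to miR-133b-3p and miR-1a-3p to miR-133a-3p. The groups overlapped for miR-1a-3p to miR-133b-3p and for miR-133a-3p to miR-133b-3p. With all 6 libraries, the smallest p was that of miR-133a-3p to miR-133b-3p, with a difference of 0.11 (exact permutation p = 0.2, adjusted p = 0.75). Groups then overlapped for all 6 pairs. With 3 against 3 libraries the smallest p is 0.1, so no pair could have passed.

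The arms of a hairpin were compared through the share of the 5p arm. For miR-206 it was 0.00636% to 0.0121% of the reads of both arms, so that the guide arm was 8246 to 15711 times as abundant. For miR-133b the 5p share was 1.11% to 1.87%, and for miR-133a it was 6.76%, 4.66% and 5.10% in control and 4.38%, 3.91% and 4.71% in treated libraries. Each arm averaged 10 RPM or more for 52 hairpins, miR-133a among them, of which limma called 0 (0% of those tested), with 6 at an unadjusted p under 0.05. The log2 ratio of 5p to 3p of miR-133a differed by −0.33 (95% interval −0.76 to 0.10, limma adjusted p = 0.425), and by −0.17 with control replicate 1 dropped. With a lower limit of 1 RPM, the difference was 0.05 for miR-206 (95% interval −0.53 to 0.62) and −0.06 for miR-133b (95% interval −0.69 to 0.57).

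**Figure D4:**
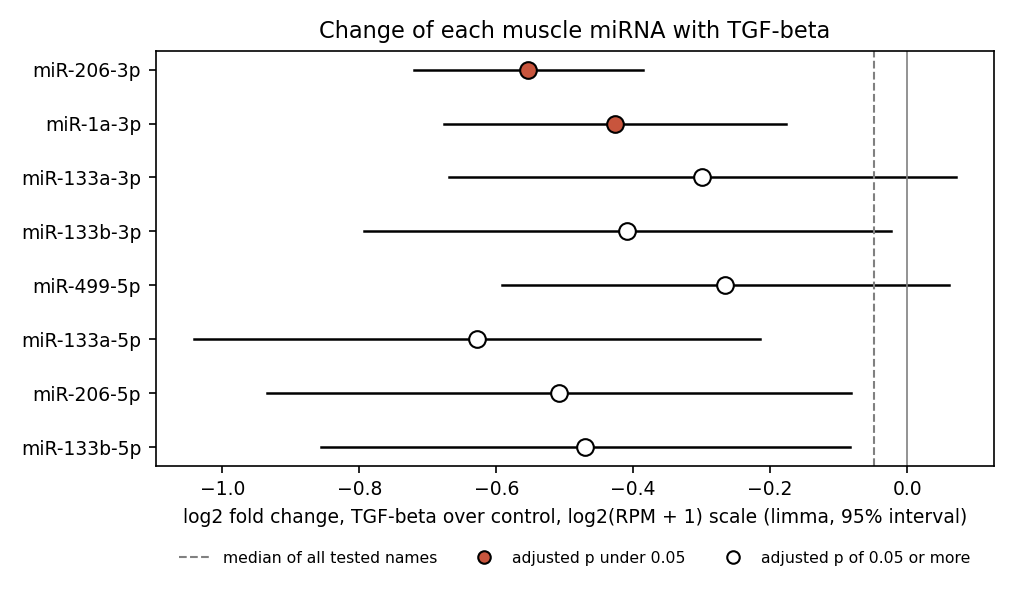
Log2 fold change of each signal on the log2(RPM + 1) scale with its 95% interval from limma, filled where the adjusted p was under 0.05. All 8 points lie between −0.63 and −0.27, left of the median of all tested names (dashed, −0.05), and 2 are filled.

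Across the group, all 9 names passed the filter of 1 RPM in 3 libraries. Of the 8 signals, miR-206-3p and miR-1a-3p were lower past the threshold (2 of 8) and 0 were higher, against 3.83% of all 418 tested names called lower. Both are among the 17 most abundant names, while the 3.83% is drawn mostly from scarcer names. Also called lower among the 17 were miR-1b-5p, miR-532-5p (−0.44, limma adjusted p = 0.00821) and miR-378a-3p (−0.42, limma adjusted p = 0.00402). miR-21a-5p alone of the 17 was called higher (0.38, limma adjusted p = 0.00146). Groups did not overlap, with treated libraries lower, for 3 of the 8 signals, against 12.2% of all tested names. All 8 log2 fold changes were negative, as were 59.6% of those of all names, and the median over the signals was −0.45, against −0.05 over all names. The signals are not independent of each other, since arms share hairpins and miR-133a and miR-133b may share reads. On the scale without miR-21a-5p the median of the signals was −0.30 and that of all names 0.11, and the groups of miR-1a-3p overlapped.

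**Figure D5:**
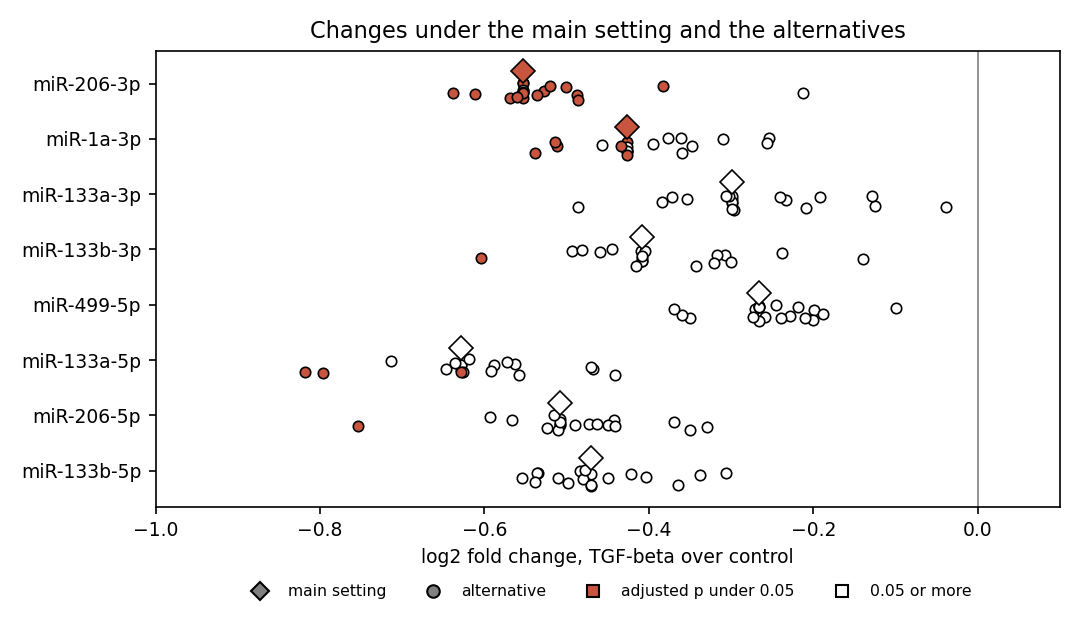
Log2 fold change of each signal under the main setting (diamond) and under each alternative (circle), filled where the adjusted p was under 0.05. Every point lies below 0, from −0.82 to −0.04, and miR-206-3p is the signal with the most filled points.

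The sign was negative for each of the 8 signals under each of the 18 or 19 alternatives in which it could be fitted, which cover scaling, filter, test and single libraries left out. The size was less fixed. The number of signals called lower was 0 with quantile normalization and without an intensity trend, and 4 without TGF-beta replicate 1. Over all tested names, 4 of 418, 6 of 418 and 17 of 409 were called lower in these settings. With the muscle names themselves taken out of the total, miR-206-3p was at −0.64 (limma adjusted p = 0.000856) and miR-1a-3p at −0.51 (limma adjusted p = 0.0282).

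Other miRNAs of the muscle programme were read from lists that hold names known for a role in myoblasts. Of 12 further muscle-enriched names and arms of the same hairpins, 7 were measured and 3 tested, and all 3 fell, against 3.83% of all tested names. These were miR-486a-5p, miR-486a-3p and miR-486b-3p, whose levels were nearly the same, so that they are best read as a single signal. miR-486a-5p, a repressor of the satellite cell factor Pax7, was at −0.78 (SE 0.13, limma adjusted p = 0.000538). Of 12 miRNAs described as favouring differentiation, all tested, 3 fell and none rose, against 3.83% and 4.07% of all tested names, and the median was −0.18, against −0.05 over all names. Those that fell were miR-378a-3p at −0.42 (SE 0.09), miR-503-5p at −0.70 (SE 0.17), which represses the phosphatase Cdc25A, and miR-486a-5p. The 4 most abundant members were miR-27b-3p, miR-378a-3p, miR-26a-5p and miR-24-3p, and of these miR-378a-3p alone passed (limma adjusted p = 0.00402). miR-27b-3p, a repressor of Pax3, was at −0.10 (SE 0.11), miR-26a-5p, a repressor of Ezh2, at −0.18 (SE 0.10), and miR-24-3p at −0.21 (SE 0.10).

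Of 7 miRNAs described as holding differentiation back, 6 were tested, 1 rose and none fell, against 4.07% and 3.83% of all tested names. Their median of −0.09 was close to the −0.05 of all names. The one that rose was miR-155-5p, a repressor of MEF2A, at 0.84 (SE 0.13, limma adjusted p = 0.000479). The abundant members miR-23a-3p (0.04, SE 0.13), miR-125b-5p (−0.03, SE 0.11), miR-221-3p (−0.24, SE 0.13) and miR-222-3p (−0.31, SE 0.13) did not pass.

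Names whose pattern was most like that of miR-206-3p were sought among 234 others with a mean of at least 10 RPM, by the root-mean-square difference of log2(RPM + 1) values centred over the 6 libraries. The nearest were miR-378a-3p (0.10), miR-532-5p (0.10) and miR-486a-3p (0.14), against a median of 0.31 over all candidates. miR-378a-3p stood at 38329, 38948 and 40643 RPM in control and 30525, 27493 and 30371 RPM in treated libraries, again without overlap. Among the muscle signals miR-133b-5p (0.14) and miR-1a-3p (0.17) were closest to miR-206-3p, while miR-133a-3p and miR-133b-3p, the latter from the neighbouring hairpin, were the farthest (both 0.32). Nearest to miR-1a-3p were miR-30c-5p (0.13), miR-328-3p (0.14) and miR-345-3p (0.15), and of the muscle signals miR-499-5p (0.10). miR-30c-5p stood at 5112, 4980 and 4717 RPM in control and 4096, 4150 and 3272 RPM in treated libraries, and it did not pass (limma adjusted p = 0.0592).

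The start of Gm28653, which both Mir206 and Mir133b overlap, was not compared with that of Lincmd1 in RefSeq. Shown is the annotated start of Lincmd1, which lies upstream of both hairpins on the same strand. The 250 bases before and 50 after it, on the plus strand at chr1:20669632-20669931 of GRCm38.p6, hold the E-box CANNTG, the core that MyoD and other basic helix-loop-helix factors bind, at 2 places, in capitals. On both strands CANNTG was found in 72.3% of 32851 promoters of the same length. The form CAGCTG, preferred by MyoD and contained in CANNTG, occurred at 1 place and in 16.3% of promoters. The Smad-binding letters CAGAC occurred at 1 place and in 49.6% of promoters. The same window at Myh7b, the host of Mir499, held CANNTG at 2 places and neither CAGCTG nor CAGAC. A match describes letters and not a bound site, and which start drives either hairpin in these cells is not known from the data.
Lincmd1: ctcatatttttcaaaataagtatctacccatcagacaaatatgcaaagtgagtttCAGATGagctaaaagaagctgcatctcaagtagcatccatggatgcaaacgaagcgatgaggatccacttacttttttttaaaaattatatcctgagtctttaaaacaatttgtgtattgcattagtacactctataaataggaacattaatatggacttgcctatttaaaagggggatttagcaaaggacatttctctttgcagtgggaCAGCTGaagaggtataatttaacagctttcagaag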

How the data were processed

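The authors deposited 1 table with 1065 miRNA names and, for each of the 6 libraries, values headed TPM. From the values, these are RPM: each library sums to 1000000 and all values (100%) are whole multiples of 1 read, to within 0.01 read. The submitters' processing notes name mm9 as the build. No aligner, counter or miRNA annotation is stated in the labels or the table. The deposited table further gives the authors' mean of each group and a p-value, which is unadjusted.

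Groups came from the treatment label. The 418 names that reached 1 RPM in 3 or more libraries entered a two-sided limma test (version 3.58.1, R 4.3.3, trended prior) of log2(RPM + 1), adjusted by Benjamini-Hochberg at 0.05. The filter left out 647 names, at most 0.0131% of reads. Counts recovered from the deposited RPM steps entered edgeR 4.0.16 (quasi-likelihood) and DESeq2 1.42.0, which called 29 names each. The main limma fit, the edgeR and DESeq2 fits and the arm-ratio fit were run on simulated counts, and the other steps were not. Poisson intervals and floors cover counting error only, and the floor of 3 reads for a count of 0 equals 0.306 to 0.333 RPM. The limma intervals of fold changes and arm ratios rest on library-to-library spread. Alternatives changed the pseudocount, filter, scaling, test, replicate block and libraries included.

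All 9 names are described, with the 3 names most like miR-206-3p and miR-1a-3p, and from each list the called and up to 4 most abundant members. The members and lists were chosen with earlier results of these data known. Sequences are from RefSeq, GRCm38.p6.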

Additional observations from a re-analysis of the deposited data

How the results depend on the processing

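Every log2 fold change of the 8 muscle signals kept its negative sign in each alternative. miR-206-3p lost its call with quantile normalization (−0.21) and without an intensity trend (−0.55). miR-1a-3p lost it without a filter (−0.43), with a filter of 10 RPM (−0.43), median scaling (−0.36), quantile normalization (−0.25), miR-21a-5p left out (−0.26), no trend (−0.43), edgeR (−0.36) and DESeq2 (−0.38), and held it in 7 of 19. The cause was not tested. Of the other signals, 3 gained a call in some alternative. Removing the reads of miR-1b-5p, chosen after seeing the data, left both calls among the signals in place.

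The count of signals called lower, 2 in the main setting, was 1 without a filter, with the filter of 10 RPM, median scaling, miR-21a-5p left out, edgeR and DESeq2, and 0 with quantile normalization and without a trend. The count over all names, 33 in the main setting, was 19, 20, 10 and 16 without a filter, with the filter of 10 RPM, quantile normalization and no trend, where the numbers of names tested also differed for the filters (1065 and 244). It was 30 of 418 with median scaling, 28 of 463 with miR-21a-5p left out, and 29 of 418 in edgeR and in DESeq2.

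Leaving out single libraries gave −0.61 to −0.52 for miR-206-3p, −0.75 to −0.33 for miR-206-5p, −0.54 to −0.31 for miR-1a-3p, −0.49 to −0.04 for miR-133a-3p, −0.82 to −0.44 for miR-133a-5p, −0.60 to −0.14 for miR-133b-3p, −0.54 to −0.36 for miR-133b-5p and −0.37 to −0.19 for miR-499-5p. The count of signals called ran from 1 to 4 and that of all names from 17 (without TGF-beta replicate 2) to 36. The log2 ratio difference of miR-1a-3p to miR-133b-3p, −0.02, turned to 0.11 when control replicate 1 was dropped, and to 0.09 and 0.02 when the first or the second treated library was, in a range of −0.17 to 0.11. That of miR-206-3p to miR-133b-3p, −0.14, ran from −0.43 to 0.068, the last with the first treated library dropped. The other pairs kept their sign, and the arm ratio difference of miR-133a ran from −0.44 to −0.17.

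Control and treated libraries share replicate numbers. Deviations from the group means of same-numbered libraries had correlations of −0.08, −0.07 and −0.08 across names. These values show no effect shared by number, but with 3 libraries per group they cannot tell whether libraries were prepared in pairs. With the replicate number as a block, 32 names were called, among them 3 muscle signals, with miR-133a-5p added at −0.63 (limma adjusted p = 0.00861), and 0 hairpins by arm ratio. Depth limits miR-206-5p and miR-133b-5p, at 46 to 107 reads per library.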
